A study of Mus musculus with 21 samples.

Results

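The circadian clock genes Clock, Per1, Per2, Per3, Cry1, Cry2, Nr1d1, Nr1d2, Dbp and Tef were followed in whole lungs of mouse fetuses at E18.5. Each gene was read from the probe sets that carry its symbol and no other, and where there were several, from the one with the highest mean over the 21 arrays. This gave 9 of the 10 genes, among 22180 genes with a probe set of their own. The probe set of Per2 also carries another symbol, so Per2 was not analysed here. The fetuses were Balb/c WT. Of these, 12 came from dams exposed to cigarette smoke (CS, 6 males and 6 females) and 9 from dams kept in filtered air (AIR, 5 males and 4 females). Exposure ran from gestational day 2.5 to 17.5 per the labels, which also call the AIR mothers untreated. A male and a female fetus were taken per litter per the methods, but the labels do not say which fetuses are littermates, so p-values measure the spread between fetuses that are not all independent. The labels number the animals in a lower range (8 CS and 3 AIR fetuses) and a higher range (4 CS and 6 AIR fetuses), with a gap between them, and do not say what the numbers stand for. Per the methods the smoke exposures took place in the morning and the lungs were profiled a day after the last of them, which places the collection at about that part of the day, and the hour is not given.

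The clock is a feedback loop of transcription. CLOCK, or its relative NPAS2, pairs with BMAL1 and binds E-box sequences in the Per, Cry, Nr1d1, Nr1d2, Dbp and Tef genes, PER and CRY proteins then repress that pair, and NR1D1 and NR1D2 repress Bmal1 in competition with the activating ROR receptors. DBP and TEF activate genes through D-box sequences, where NFIL3 represses. In adult mouse tissues, lung included, the products of this loop rise and fall over the day, with Bmal1 and Npas2 high when Nr1d1 and Dbp are low. Tissues sampled at different phases of a running clock therefore show both sets of genes moving in opposite directions.

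The sequences that these proteins bind can be read in the promoters of some of the measured genes, and are shown because the comparisons below set activators against their targets. In the 250 bases before each start in the RefSeq promoters of GRCm38.p6, the E-box CACGTG was found in 6.02% of 32851 promoters and the D-box, TTATGTAA or TTACGTAA, in 0.931%. Both strands were searched. An E-box match lay in a promoter of Per1, Cry1 and Tef, and Per3 held 2 D-box matches, the nearer one 158 bases before its start. The capitals mark the match, and each sequence is given 5′ to 3′ on the strand of the gene.
Per1, chr11:69098753-69098818, plus strand, E-box 166 bases before the start: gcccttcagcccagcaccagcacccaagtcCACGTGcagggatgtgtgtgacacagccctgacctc
Cry1, chr10:85185079-85185144, minus strand, E-box 60 bases before the start: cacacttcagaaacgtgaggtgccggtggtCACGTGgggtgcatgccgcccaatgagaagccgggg
Tef, chr15:81802516-81802581, plus strand, E-box 127 bases before the start: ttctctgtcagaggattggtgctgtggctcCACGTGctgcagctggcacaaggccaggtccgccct
Per3, chr4:151044786-151044900, minus strand: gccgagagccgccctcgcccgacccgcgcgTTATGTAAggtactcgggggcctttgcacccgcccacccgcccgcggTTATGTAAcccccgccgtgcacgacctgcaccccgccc
The second Tef promoter also held an E-box, 138 bases before its start. These letters were not in the windows of Clock, Cry2, Nr1d1, Nr1d2 and Dbp, which says nothing of sites elsewhere in those genes. The ROR element core, TAGGTCA or TGGGTCA, was in 5.38% of promoters and in none of those of the 9 genes. The Nfil3 promoter held it on the opposite strand, 12 bases before the start.

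Values are log2 intensities on the scale of the deposited arrays, on which a difference of 1 is a 2-fold difference in intensity. A level is compared between fetuses for 1 probe set, not between probe sets. Array medians lay between 2.10 and 2.20, and Dbp, Nr1d1 and Nr1d2, with means over all fetuses of 2.54, 2.89 and 3.21, were not far above them. No filter on detection was applied. The lungs had the markers of fetal lung epithelium, whose list mean was 6.68 to 7.59 in CS and 7.23 to 7.71 in AIR lungs. Markers of other tissue were high on 8 arrays (4 CS and 4 AIR), each with a list mean for heart muscle, thymocytes or oesophagus more than 2 above the median of all arrays. In whole lung, fewer cells of a type and less RNA per cell cannot be told apart.

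CS exposure was compared with AIR with the sexes merged. None of the 9 clock genes passed the study threshold, which asked of limma for a fold change beyond 1.2 in either direction and an unadjusted p below 0.05. Of all 40543 probe sets, 4.41% were called at it (900 higher and 889 lower in CS lungs). No clock gene had an unadjusted p under 0.05, which 7.49% of all probe sets had, and the lowest Benjamini-Hochberg adjusted p among them was 0.75. At a false discovery rate of 10%, 0% of the probe sets were called. The differences of the clock genes were small and 8 of 9 were below 0, with a median of -0.07 log2. For every gene the ranges of CS and AIR fetuses overlapped, and the share of all probe sets with such overlap was not counted.

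**Figure D1:**
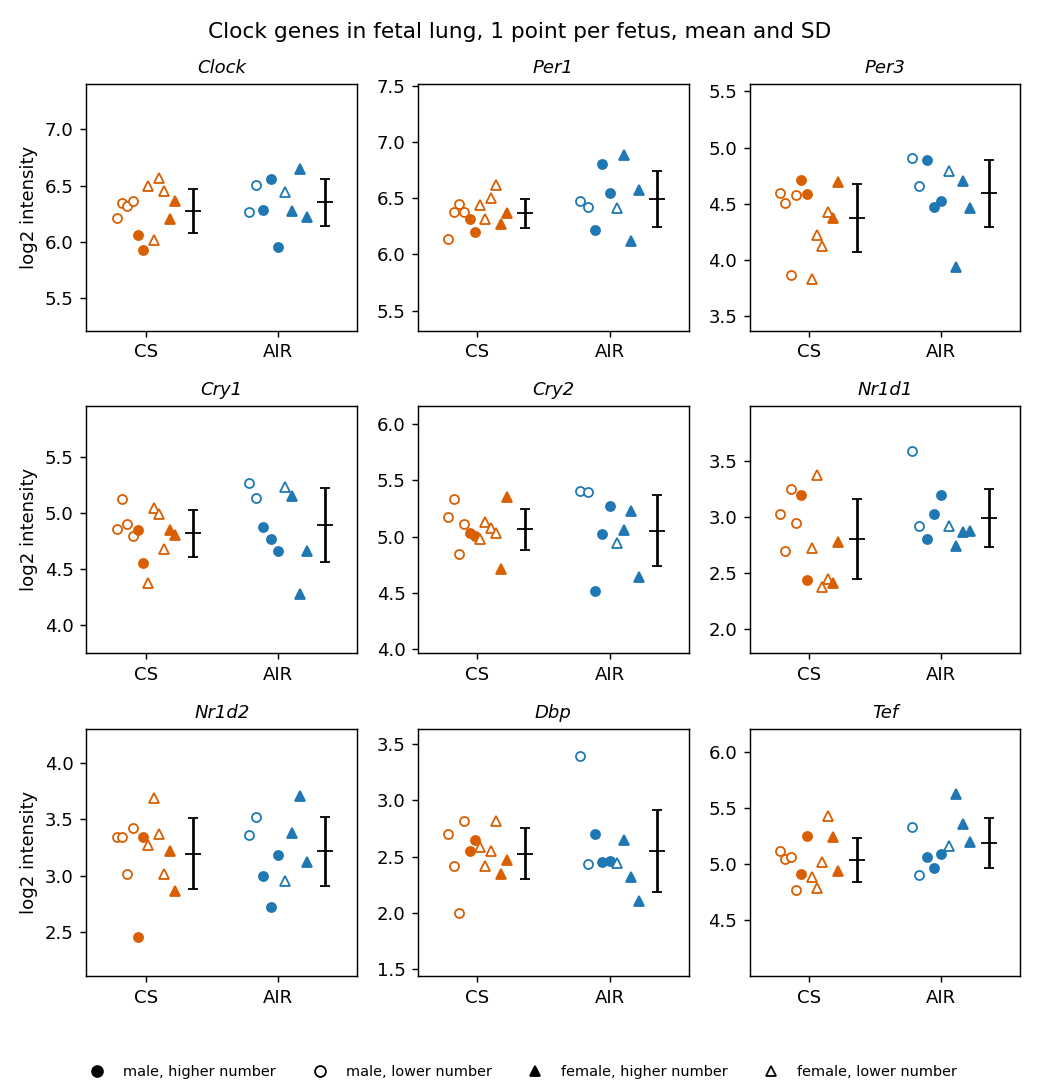
Log2 intensity (y axis) of the 9 clock genes in each CS and AIR fetus, with filled symbols for higher and open symbols for lower animal numbers, circles for males and triangles for females, and the mean ± SD of each group as a black bar. All panels span the same number of log2 units. The CS and AIR points overlap in every panel, and 1 AIR male stands at 3.40 for Dbp.

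Clock, the activator of the loop, ranged between 5.93 and 6.57 in CS fetuses with a median of 6.33, and between 5.96 and 6.64 in AIR fetuses with a median of 6.29. The means were 6.28 ± 0.20 in CS (SD, n = 12) and 6.35 ± 0.21 in AIR lungs (SD, n = 9). The difference of -0.07 had a 95% interval of -0.26 to 0.12 (limma p = 0.43, exact permutation p = 0.42). Clock RNA cycles little in most adult tissues. Its SD within groups, 0.20, was at percentile 73.1 among 2218 genes of similar mean.

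Of the period genes, whose proteins are the repressors that time the loop, Per1 lay between 6.14 and 6.62 in CS fetuses (median 6.37) and between 6.12 and 6.89 in AIR fetuses (median 6.47). Its difference was -0.13 (interval -0.31 to 0.05, exact permutation p = 0.14), and 10 of 12 CS fetuses were below the AIR mean. Per3 lay between 3.83 and 4.71 in CS fetuses (median 4.47) and between 3.94 and 4.91 in AIR fetuses (median 4.66). Per3 had the largest difference of the 9 genes, -0.22 (interval -0.48 to 0.05, limma p = 0.11, exact permutation p = 0.12). Leaving out AIR female 7, whose Per3 of 3.94 was the lowest of the AIR group, took Per3 past the study threshold, at -0.30 (p = 0.020). Without the 8 arrays high in other tissue, AIR female 7 among them, it was -0.41 (p = 0.018). All AIR arrays left out there were of higher numbers, so the balance of number ranges changed too, and its part was not tested.

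The cryptochromes, the other repressors of the CLOCK and BMAL1 pair, were close in both groups. Cry1 averaged 4.82 ± 0.21 in CS and 4.89 ± 0.33 in AIR lungs, with 4.38 to 5.13 in CS and 4.28 to 5.27 in AIR fetuses. Its difference was -0.07, with an interval of -0.31 to 0.17. Cry2 averaged 5.06 ± 0.18 in CS and 5.05 ± 0.32 in AIR lungs, a difference of 0.01 with an interval of -0.21 to 0.23, and 6 of 12 CS fetuses were above the AIR median. Its sign turned when other arrays or terms were used, with -0.15 without the arrays high in other tissue.

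Nr1d1 (REV-ERBα) and Nr1d2 (REV-ERBβ) are nuclear receptors that repress Bmal1 and whose RNA cycles strongly in adult tissue. Nr1d1 lay between 2.38 and 3.37 in CS fetuses (median 2.75) and between 2.75 and 3.58 in AIR fetuses (median 2.92), and 6 of 12 CS fetuses were below the lowest AIR fetus. The difference was -0.19 (interval -0.47 to 0.09, exact permutation p = 0.19), and it was -0.36 (limma p = 0.043), past the study threshold, without the arrays high in other tissue. AIR male 1, the highest fetus for Nr1d1, was not among those arrays. With only that fetus left out, the difference was -0.11 (exact permutation p = 0.40). Nr1d2 averaged 3.20 ± 0.32 in CS and 3.22 ± 0.31 in AIR lungs, with a difference of -0.02 and an interval of -0.30 to 0.26.

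Dbp and Tef, transcription factors of the PAR bZIP family that carry the clock to its output genes, gave -0.03 (interval -0.28 to 0.23) and -0.15 (interval -0.34 to 0.04). Dbp lay between 1.998 and 2.82 in CS fetuses, against 2.11 to 3.40 in AIR fetuses. The AIR value of 3.40 was AIR male 1, the next AIR fetus was at 2.70, and without that fetus the Dbp difference was 0.08. Tef lay between 4.77 and 5.43 in CS fetuses (median 5.03), against 4.91 to 5.62 in AIR fetuses (median 5.16), and 3 of 12 CS fetuses were below the lowest AIR fetus. A second probe set of Tef gave -0.12 (interval -0.40 to 0.15). The intervals that reached farthest were those of Per3 and Nr1d1, with ends at 1.40-fold and 1.38-fold lower in CS lungs. A p that misses the threshold does not show that CS and AIR lungs had the same level, and the intervals bound how far apart they may be.

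**Figure D2:**
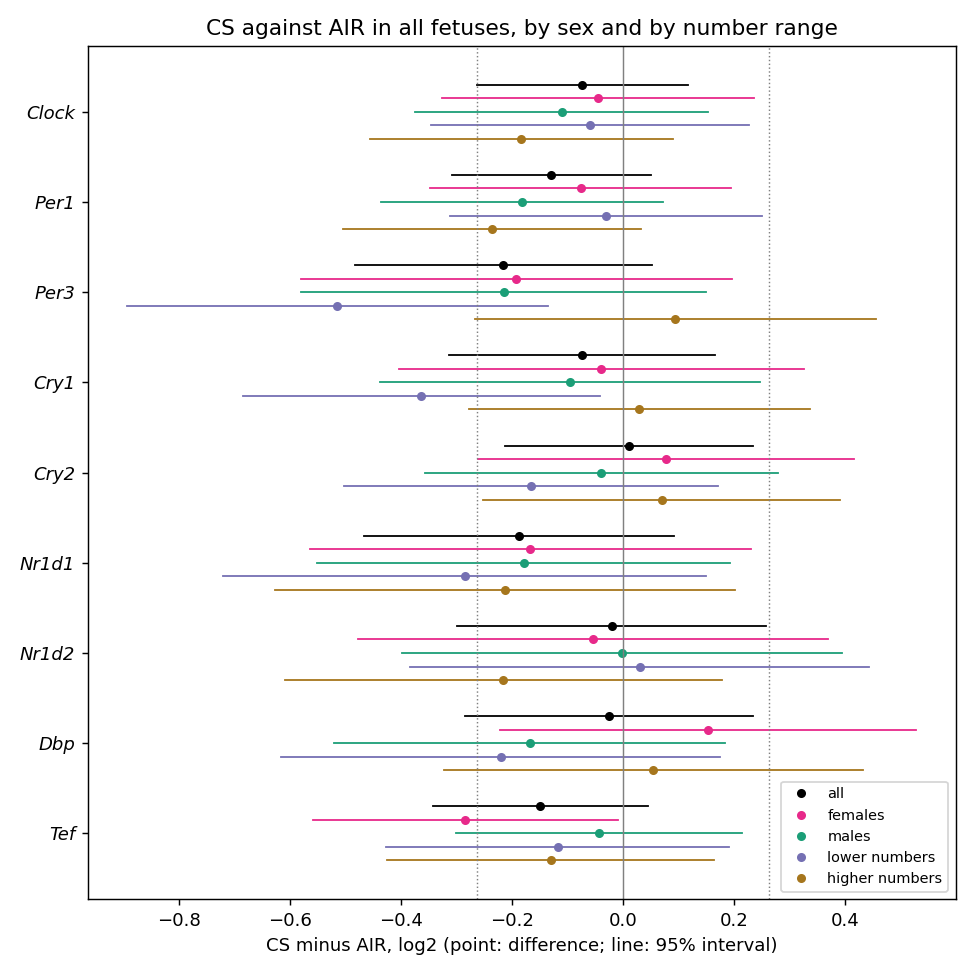
CS minus AIR difference in log2 intensity (x axis) for each clock gene, in all fetuses (black), females, males, lower and higher animal numbers, with lines for the 95% interval of limma and dotted lines at the fold limit of the study. All black intervals include 0, and Per3 and Cry1 lie at -0.51 and -0.36 in lower numbers and near 0 in higher numbers.

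In females 1 of 9 genes passed the study threshold. This was Tef, lower in CS females by a difference of -0.28 (interval -0.56 to -0.01, p = 0.043, adjusted p = 0.85). Its second probe set gave -0.19 in females (interval -0.53 to 0.16, limma p = 0.28) and was not called. At this threshold 5.38% of all probe sets were called in females, 2.89% as lower. Tef was 4.78 to 5.43 in the CS females (median 4.98), and AIR females had 5.16, 5.62, 5.35 and 5.20. The ranges overlapped and the exact permutation p was 0.10. The call was lost without any 1 of CS females 7, 8, 9 and 12 and AIR females 7 and 8, with a value of -0.19 without AIR female 7. In males none of the 9 genes passed the threshold, at which 4.91% of probe sets were called, and all 9 differences were below 0, between -0.22 (Per3) and -0.00 (Nr1d2). For none of the genes did the CS difference of females and males differ past the threshold (4.39% of probe sets called). Dbp had the largest such difference, 0.32 (interval -0.19 to 0.84, p = 0.21), with 0.15 in females and -0.17 in males. Between female and male fetuses, whatever the exposure, 0 of 9 genes had an unadjusted p under 0.05 in limma, which 1822 of 40543 probe sets had. Likewise 0 of 9 passed the threshold (2.47% of probe sets called). The second probe set of Tef was past it, at -0.35 (interval -0.58 to -0.11, p = 0.0054), against 0.13 for the first (interval -0.06 to 0.31), so both probe sets of Tef had opposite signs between the sexes. The lowest p of the 9 was that of Nr1d1, 2.75 ± 0.30 in females and 3.01 ± 0.31 in males, with a difference of -0.25 (interval -0.51 to 0.01, p = 0.063). It was called without the arrays high in other tissue (-0.37) or without any 1 of CS males 2 and 6, CS female 8 and AIR male 3 (-0.32 to -0.27), and Per3 was called without CS male 3 (-0.27).

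The CS difference of Per3 was unlike in the lower and the higher animal numbers. In the lower numbers 2 of 9 genes passed the threshold, both lower in CS lungs. Of all probe sets 8.25% passed it there, 4.87% as lower. Per3 in the 8 CS fetuses lay between 3.83 and 4.60 (median 4.33), and the 3 AIR fetuses had 4.91, 4.66 and 4.79. The groups did not overlap, the difference was -0.51 (interval -0.89 to -0.14, p = 0.010, adjusted p = 0.31), and the exact permutation p was 0.018. Cry1 lay between 4.38 and 5.13 in the CS fetuses, and the AIR fetuses had 5.27, 5.13 and 5.23. Its difference was -0.36 (interval -0.69 to -0.04, p = 0.029, exact permutation p = 0.030). The Cry1 call was lost without AIR male 1 (-0.34, p = 0.084) or AIR female 6 (-0.35, p = 0.072), so it rests on a group of 3 fetuses.

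In the higher numbers 0 of 9 genes passed the threshold in limma (4.27% of probe sets called). An unadjusted p under 0.05 was found for 0 of 9 genes and for 1928 of 40543 probe sets. Per3 in the 4 CS fetuses was 4.71, 4.59, 4.37 and 4.69, against 3.94 to 4.89 in the 6 AIR fetuses (median 4.50), a difference of 0.09 (interval -0.27 to 0.46). Cry1 differed by 0.03 (interval -0.28 to 0.34). Per1 had -0.24 (interval -0.50 to 0.03, p = 0.081), and was called without AIR male 3 (-0.30) or AIR female 8 (-0.32). The test of the difference between the ranges gave 0.61 for Per3 (interval 0.09 to 1.13, p = 0.025, adjusted p = 0.64), the only 1 of the 9 genes past the threshold there, at which 6.75% of probe sets were called. Without AIR male 1 this was 0.55 (p = 0.065). For Cry1 it was 0.39 (interval -0.05 to 0.84, p = 0.080), and past the threshold without AIR female 7 (0.48, p = 0.027). Between higher and lower numbers themselves, with exposure as a term, 0 of 9 genes passed the threshold (3.21% of probe sets called). An unadjusted p under 0.05 was found for 1 of 9 genes, Cry1, and for 2337 of 40543 probe sets. Cry1 averaged 4.75 ± 0.23 in higher and 4.95 ± 0.26 in lower numbers, with an adjusted p of 0.86. Cry1 was called there without any 1 of CS male 5, CS females 7, 10, 11 and 12 and AIR female 7 (-0.29 to -0.27), and Nr1d2 without AIR female 6 (-0.31) or AIR female 8 (-0.28).

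The other genes of the loop were read the same way, and 30 of 34 in 4 lists had a probe set of their own. Among activators and ROR receptors, 1 of 5 was higher and 1 lower in CS lungs, and 3 of 5 had an unadjusted p under 0.05. Of all probe sets 4.41% were called in either direction and 7.49% had such a p. Bmal1, the partner of CLOCK, lay between 3.47 and 4.05 in CS fetuses (median 3.86), and between 3.77 and 4.49 in AIR fetuses (median 4.10). Its difference of -0.25 (interval -0.44 to -0.06, p = 0.014, adjusted p = 0.54, exact permutation p = 0.012) was 1.19-fold, just inside the fold limit, and was called without any 1 of CS males 1 and 4, AIR males 1, 4 and 5 and AIR female 9 (-0.29 to -0.26). It was -0.35 (limma p = 0.018) in lower and -0.26 (p = 0.059) in higher numbers. In females it was -0.31 (p = 0.038) and in males -0.20 (p = 0.13). Bmal1 thus passed the threshold in lower numbers and in females (adjusted p = 0.39 and 0.85), where 8.25% and 5.38% of all probe sets did. The difference of these values was 0.09 (p = 0.63) between the ranges and -0.10 (p = 0.59) between the sexes. Npas2, which can stand in for CLOCK, lay between 3.69 and 5.28 in CS fetuses (median 4.66), and between 4.63 and 5.14 in AIR fetuses (median 4.95). Its difference was -0.28 (interval -0.56 to -0.00, p = 0.047, exact permutation p = 0.046). It was -0.34 (p = 0.092) in lower and -0.06 (p = 0.76) in higher numbers, and -0.45 (p = 0.033) in females and -0.13 (p = 0.51) in males. The test of the difference gave 0.28 (p = 0.30) between the ranges and -0.33 (p = 0.24) between the sexes. The Npas2 call was lost under 7 other settings, with values of -0.32 to -0.04. It was also lost without any 1 of 14 fetuses (CS males 2, 3 and 6, CS females 7 to 10, AIR males 1, 3 and 4 and all 4 AIR females), with values of -0.29 to -0.20, the last without CS female 9.

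**Figure D3:**
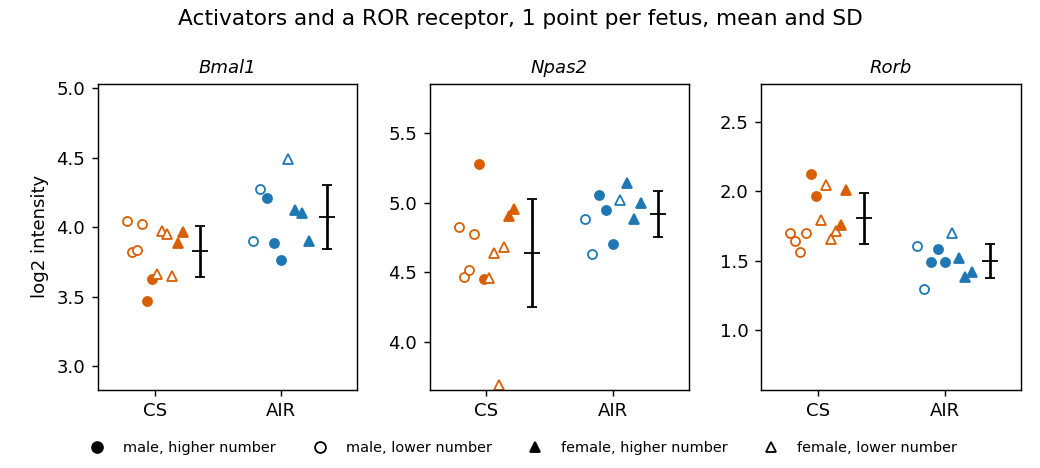
Log2 intensity (y axis) of Bmal1, Npas2 and Rorb in each CS and AIR fetus, with filled symbols for higher and open symbols for lower animal numbers, circles for males and triangles for females, and the mean ± SD of each group as a black bar. Bmal1 and Npas2 lie lower and Rorb higher in CS fetuses, all with overlapping ranges.

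Rorb, a ROR receptor known from retina and brain, was higher in CS lungs, with 1.56 to 2.12 in CS fetuses (median 1.74), against 1.295 to 1.70 in AIR fetuses (median 1.49). The difference was 0.31 (interval 0.15 to 0.46, p = 0.00060, adjusted p = 0.42, exact permutation p = 0.00032). Its highest value, 2.12, was within the range of the array medians, so the probe set was at the dim end of the scale. It was 0.48 (p = 0.00013, exact permutation p = 0.0048) in higher numbers and 0.19 (p = 0.090, exact permutation p = 0.16), not called, in lower numbers, and the test of the difference between the ranges gave 0.29 (p = 0.063). The difference was 0.21 (p = 0.041), below the fold limit, without the arrays high in other tissue. Rora, the ROR receptor of most tissues, differed by 0.07 (interval -0.12 to 0.25).

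Of the 6 other repressors and D-box factors, 0 passed the threshold in limma and 0 had an unadjusted p under 0.05. The lowest p were those of Bhlhe40 (DEC1), a repressor at E-boxes, at -0.22 (interval -0.45 to 0.00, p = 0.054), and Hlf, the third PAR bZIP factor, at -0.16 (interval -0.39 to 0.08). Nfil3, the repressor at D-boxes, differed by 0.07 (interval -0.13 to 0.26). Of 8 kinases and enzymes that add or remove ubiquitin and set the life of PER and CRY, none passed. Fbxw11 was at -0.16 (p = 0.061) and Usp2, which removes ubiquitin, at 0.19 (p = 0.24). Of 11 output genes 1 passed, where 4.41% of all probe sets did. Herpud1, of the degradation of misfolded proteins, was lower in CS lungs at -0.27 (interval -0.48 to -0.06, p = 0.013, adjusted p = 0.54). That call was lost, with values of -0.26 to -0.22, without any 1 of 7 fetuses (CS males 3 and 4, CS females 8 and 9, AIR males 1 and 2 and AIR female 7). It was also lost under 3 other settings, with values of -0.26 to -0.09, the last with the type II mean, described further on, as a term. Herpud1 had -0.48 (p = 0.0030) in lower and -0.03 (p = 0.82) in higher numbers, and the difference between the ranges was past the threshold (0.45, p = 0.033, adjusted p = 0.68). Alas1, the first enzyme of haem synthesis, had -0.20 (p = 0.0087), inside the fold limit. Among 10 glucocorticoid targets, a list taken in because the hormone sets peripheral clocks and directly induces Per1, Errfi1 alone passed (1 of 10, against 4.41% of all probe sets), lower in CS lungs at -0.26 (p = 0.030), and Dusp1 had -0.20 (p = 0.038). The Errfi1 call was lost, with values of -0.26 to -0.23, without any 1 of 9 fetuses (CS male 3, CS females 7 to 10, AIR males 1, 2 and 4 and AIR female 7). Errfi1 had -0.54 (p = 0.0021) in lower and 0.05 (p = 0.71) in higher numbers, and the difference between the ranges was past the threshold (0.59, p = 0.011, adjusted p = 0.53).

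Covariation across fetuses was then examined, to ask whether the clock genes moved together or in opposition from fetus to fetus. The lungs were collected at about the same part of the day, as far as the methods tell. How far the fetuses differed in phase is not known, so a low r does not tell whether a clock ran in them. Over 36 pairs of the 9 genes, Pearson r had a median of 0.08 and ranged between -0.41 and 0.37, with 24 pairs above and 12 below 0. No pair had a permutation p of r under 0.05, 2 had one of Spearman's rho under 0.05, and none passed after Benjamini-Hochberg adjustment over the 36 pairs, where the lowest adjusted p was 0.88 for r and 0.73 for rho. The sign of r was the same in females and in males for 13 of 36 pairs, and the same in CS and in AIR fetuses for 20 of 36.

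**Figure D4:**
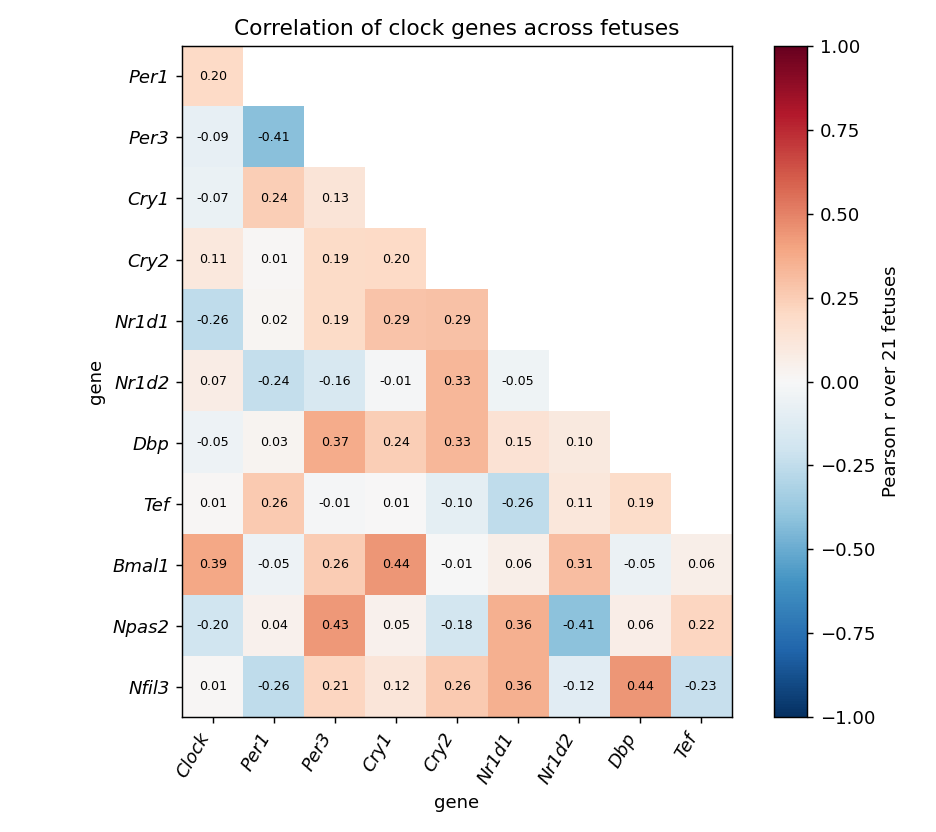
Pearson r over 21 fetuses for each pair of the 9 clock genes and of these with Bmal1, Npas2 and Nfil3 (lower 3 rows), blue for negative and red for positive values. No cell is beyond 0.44 in either direction.

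The lowest r was that of Per1 and Per3, at -0.41 (permutation p = 0.063, rho = -0.45, permutation p = 0.041). It was -0.44 within CS and -0.78 within AIR fetuses, -0.16 in lower and -0.74 in higher numbers, and -0.31 without the 2 fetuses farthest from the Per1 median. In adult tissue the RNA of these paralogues peaks at neighbouring times of day. The highest r was that of Per3 and Dbp, at 0.37 (permutation p = 0.097, rho = 0.26, permutation p = 0.25). It was -0.39 in females and 0.79 in males, and 0.22 without AIR male 1. Nr1d1 and Nr1d2 gave -0.05 and Dbp and Tef 0.19, where each pair belongs to a single family of clock targets. Nr1d1, Nr1d2 and Dbp were not far above the array medians, which limits the precision of these values. For Tef, 1 of its 2 probe sets was used.

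With Bmal1, Npas2 and Nfil3, genes that oppose Nr1d1 and Dbp in phase in adult tissue, 27 pairs gave a median r of 0.06, 3 with a permutation p under 0.05 and none after adjustment over the 27 (lowest adjusted p = 0.44 for r and 0.30 for rho). Those 3 were Dbp with Nfil3 (0.44), Cry1 with Bmal1 (0.44) and Per3 with Npas2 (0.43), all positive. By rho 4 pairs had a permutation p under 0.05, these 3 and Nr1d2 with Npas2, which was negative (r = -0.41, permutation p = 0.066, rho = -0.45, permutation p = 0.041). Nr1d1 and Bmal1 gave 0.06 (permutation p = 0.80, rho = 0.11, permutation p = 0.63), and -0.50 within AIR fetuses and 0.13 within CS fetuses. None of the other 38 clock genes was among the 50 genes with the highest r to any of the 9. The SD of the 9 genes within groups lay between 0.19 (Per1) and 0.32 (Nr1d1). Set against 2218 genes of similar mean, Per3 was at the highest percentile of the 9, 80.4, and Dbp at 53.6. Npas2 was at percentile 83.7 and Bmal1 at 17.3.

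The genes nearest to Clock over 21 fetuses were C130026L21Rik (r = 0.78), Paf1 (0.77) and 2610307P16Rik (0.76), and those farthest were Gm20756 (-0.81), Parm1 (-0.80) and Tagln (-0.78). Paf1 is a subunit of a complex of transcription elongation, and Tagln an actin-binding protein of smooth muscle. For Dbp they were Gm6313 (0.78), E230029C05Rik (0.77) and Olfr619 (0.76), and Exosc3 (-0.79), Lrp12 (-0.74) and Ran (-0.71), and without AIR male 1 the 6 values lay between -0.56 and 0.56. These are the extremes of all genes and are given as a description. AIR male 1 was the highest of all 21 fetuses for 5 of the 9 genes (Per3, Cry1, Cry2, Nr1d1 and Dbp) and above the median for 8, and it had the highest mean of the 10 glucocorticoid targets, 5.10, with CS fetuses between 4.40 and 4.78 and the other AIR fetuses between 4.43 and 4.96 (AIR female 7). Its oesophagus mean was 3.46 and its mean of dividing-cell genes, 4.64, the lowest of the 21 fetuses, and their part in its clock values was not tested. Without it the median r of the 36 pairs was 0.00.

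Per3 covaried with the markers of a cell type. Alveolar type II cells make surfactant and mature just before birth. The mean of the 11 genes fixed for them was 7.31 to 8.26 in CS fetuses (median 7.91) and 7.91 to 8.44 in AIR fetuses (median 8.18). Over 21 fetuses Per3 had r = 0.72 with it (permutation p = 0.00032, rho = 0.70, permutation p = 0.00057), and r = -0.63 with the mean of 9 genes of dividing cells (permutation p = 0.0025, rho = -0.61, permutation p = 0.0035). After adjustment over 36 relations, 12 genes with 3 lists, these had p of 0.012 and 0.025 for r. Without the 2 fetuses farthest from the median of the list, r with type II genes was 0.57. It was 0.67 in females and 0.78 in males, 0.89 within CS but 0.22 within AIR fetuses, and 0.92 in lower but -0.11 in higher numbers. The relation thus did not hold within the AIR group or within the higher numbers. With dividing-cell genes r of Per3 was -0.46 without the 2 farthest fetuses. That r was -0.79 within CS but -0.23 within AIR fetuses, and -0.86 in lower but 0.15 in higher numbers. The dividing-cell mean had a median of 5.58 in CS and 5.01 in AIR fetuses.

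**Figure D5:**
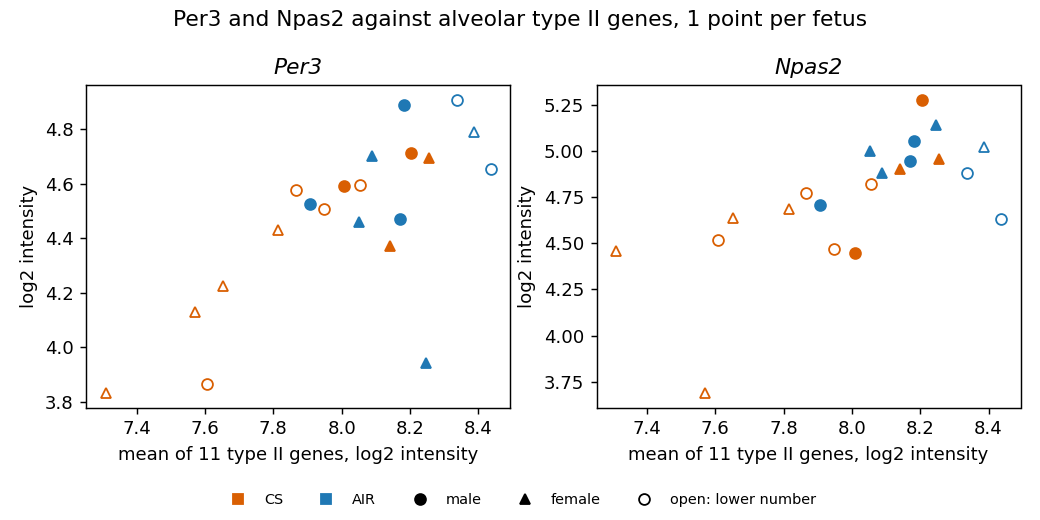
Log2 intensity of Per3 and of Npas2 (y axes) against the mean log2 intensity of 11 alveolar type II genes (x axis), 1 point per fetus, orange for CS and blue for AIR, circles for males, triangles for females, open symbols for lower animal numbers. The 4 CS fetuses with the lowest type II mean, all of lower numbers, have the lowest Per3 apart from AIR female 7 at 3.94.

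Npas2 had r = 0.66 with the type II mean (permutation p = 0.0011, adjusted p = 0.019, rho = 0.69), with 0.67 within CS and 0.04 within AIR fetuses, and 0.59 in lower and 0.72 in higher numbers. Without the 2 farthest fetuses it was 0.57. Bmal1 gave 0.46 (permutation p = 0.038, adjusted p = 0.19, rho = 0.48), and Cry1 0.40 (permutation p = 0.068, rho = 0.41). For the other 7 clock genes r with the type II mean lay between -0.21 (Nr1d2) and 0.30 (Tef). With the type II mean as a term in the fit, the CS difference of Per3 was 0.06 (p = 0.65) and that of Npas2 -0.04 (p = 0.76). The type II mean itself had a lower median in CS lungs, and the dividing-cell mean a higher one. Exposure and these transcripts therefore cannot be told apart in these fetuses. Dbp had r = 0.62 with the mean of the glucocorticoid targets (permutation p = 0.0060, adjusted p = 0.043, rho = 0.42, permutation p = 0.059), and 0.25 without the 2 farthest fetuses, so that relation rested on those fetuses. Per1, for which the list was taken in, gave r = 0.20 with that mean (permutation p = 0.39, rho = -0.07, permutation p = 0.76). Without the 2 farthest fetuses it was -0.24. Npas2 gave r = 0.55 with the glucocorticoid targets (permutation p = 0.018, adjusted p = 0.11, rho = 0.68, permutation p = 0.0010, adjusted p = 0.012), and 0.66 without the 2 farthest fetuses. It was 0.73 within CS and 0.49 within AIR fetuses, and 0.62 in lower and 0.58 in higher numbers. With the dividing-cell mean Npas2 gave r = -0.61 (permutation p = 0.0028, adjusted p = 0.025, rho = -0.55, permutation p = 0.010, adjusted p = 0.075), and -0.43 without the 2 farthest fetuses. That was -0.61 within CS and -0.21 within AIR fetuses.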

How the data were processed

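Total RNA of whole fetal lung was labelled with the Ovation PicoSL and Encore Biotin kits and measured on Affymetrix arrays, 1 per fetus, and 3 further AIR arrays were left out by the study after quality control. The authors made the deposited log2 intensities with Affymetrix Expression Console 1.3.0.187 by RMA (background correction, normalization between arrays and median polish over the probes of a probe set), so values are comparable between arrays for 1 probe set, small differences are compressed near background, and a shift shared by all genes would have been removed. Array medians were 2.10 to 2.20, and the number of arrays limits the precision.

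Of 41345 probe sets, 23521 carry 1 symbol, 1820 several and 16004 none in the platform annotation. After removal of 802 with values identical to another, 40543 were tested with limma 3.58.1 in R 4.3.3, and p-values were adjusted over all of them. Permutation tests used numpy 2.4.6 and scipy 1.17.1 under Python 3.11.15, were two-sided, and were exact between groups, with 100000 resamples for correlations. The fit was tested on simulated arrays with known differences. The smallest exact p is 0.0061 for the lower and 0.0048 for the higher numbers.

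Named were all members, other clock genes past the study threshold and, per list, the 2 with the lowest p, Bmal1, Npas2 and Nfil3, and the 3 genes with the highest and lowest r to Clock and Dbp. The members and lists were chosen with earlier results of these data known, and the arrays high in other tissue and the correlations with list means were chosen after seeing the data. Of 10 members, 9 members with 36 pairs were analysed, since Per2 shares its probe set. Some genes of the other lists are not reported here. As alternatives, dim or redundant probe sets were left out or kept, variances, array weights and normalization were set otherwise, covariates or blocks were added, and arrays were left out.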

Additional observations from a re-analysis of the deposited data

Results flagged for a closer look

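Of 72 groups of 4 to 10 fetuses, 5 held a fetus far from the others by Dixon's test, which flags about 1 in 20 groups by chance, and the groups share fetuses. The lowest AIR fetus for Per3 was AIR female 7 at 3.94, with the nearest at 4.46. Its oesophagus markers were also high (list mean 4.01), and their part in the Per3 value was not tested. The lowest CS male for Per3 was CS male 3 at 3.86, with the nearest at 4.51, and its type II mean of 7.61 was the lowest among CS males. The lowest CS fetus of higher numbers for Cry1 was CS male 6 at 4.55, with the nearest at 4.81. For Dbp, AIR male 1 at 3.40 was far from the other AIR fetuses and from the other AIR males, with the nearest at 2.70 in both.

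The CS effect on Per3 differed between the number ranges by 0.61 (higher minus lower, interval 0.09 to 1.13, limma p = 0.025, adjusted p = 0.64), with 0.09 in higher and -0.51 in lower numbers. In the lower numbers all 8 CS fetuses were below the lowest AIR fetus, 4.66, and in the higher numbers the 4 CS fetuses lay within the AIR range. Without AIR male 1 the value was 0.55 (p = 0.065). Of the other clock and glucocorticoid genes named above, the CS effect differed between the ranges for Errfi1 by 0.59 (p = 0.011), Herpud1 by 0.45 (p = 0.033) and Fbxw11 by 0.34 (p = 0.030), each with the lower value in the lower numbers and adjusted p of 0.53, 0.68 and 0.66. Among genes of these lists not named above, Sgk1 (0.51, p = 0.025) and Gsk3b (0.34, p = 0.045) also passed the threshold there. Ddit4 passed it in the opposite direction, with the largest difference of these genes (-0.77, p = 0.017, adjusted p = 0.59). Of all probe sets, 6.75% were called in this comparison.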

How the results depend on the processing

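Over 14 other settings, 119 of 126 values of the 9 genes kept their sign. With the type II mean as a term, the CS difference turned to 0.057 for Per3, 0.068 for Cry1, 0.054 for Dbp and 0.035 for Errfi1. Cry2 turned to -0.043 with number range as a block and -0.15 without the arrays high in other tissue, and Nr1d2 to 0.028 with the heart muscle mean as a term and to 0.034 with the replicate block. The cause was not tested. With the replicate block 0 of 9 genes were called, as without it. Same-numbered fetuses did not deviate together (correlations of -0.07 to 0.13 over 9 pairs, with 1 over 0.1). Replicate numbers run through males before females in both groups, so most of these pairs were of the same sex. The replicate block is therefore in part a block of sex, and whether the pairs share anything else was not tested.

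Without the arrays high in other tissue (8 CS and 5 AIR left, chosen after seeing the data), 2 of 9 genes were called in all fetuses instead of 0, 1 instead of 0 between the sexes, and 3128 probe sets instead of 1789 (1631 higher and 1497 lower). All AIR arrays left out there were of higher numbers. In females 0 genes instead of 1 were called with array weights or with the mean over probe sets, and between the sexes 1 was called with array weights. In the main fit of all arrays, 5.38% of probe sets were called in females and 2.47% between the sexes. The correlations gave 0 pairs past adjustment under every setting run.

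Leaving out 1 fetus at a time, the number of genes called was 0 to 1 in all fetuses, in females, in the higher numbers, between the ranges and between the sexes, 1 to 2 in the lower numbers, and 0 to 2 for the range difference of the CS effect. It was 0 in males and for the sex difference of the CS effect. Of all probe sets, 1602 to 2061 were then called in all fetuses, against 1789 with no fetus left out. For the other comparisons the shares of all probe sets are given above for the full set of arrays only. Differences ranged between -0.057 and 0.055 for Cry2, -0.082 and 0.047 for Nr1d2, and -0.081 and 0.080 for Dbp. The signal of Dbp, Nr1d1 and Nr1d2 near the array medians and the 3 AIR fetuses of the lower numbers limit the precision.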

Other observations

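Wee1, a clock output that holds cells back from mitosis, averaged 4.09 in CS and 3.84 in AIR lungs (difference 0.25, interval 0.01 to 0.49, limma p = 0.039), inside the fold limit. It was 4.23 in CS and 3.76 in AIR females (exact permutation p = 0.0095), where it passed the study threshold, and 3.96 in CS and 3.90 in AIR males (exact permutation p = 0.76). Bhlhe40 was past the threshold in males, with 4.62 in CS and 4.98 in AIR males (exact permutation p = 0.032), and not in females, with 4.83 in CS and 4.91 in AIR females (exact permutation p = 0.66). The effect in females minus that in males was 0.40 for Wee1 (p = 0.087) and 0.28 for Bhlhe40 (p = 0.21), neither past the threshold. Both were chosen after their values were seen.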
